A study of Mus musculus with 6 samples.

Results

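The clustered protocadherins are a family of cadherin-like cell surface proteins encoded by the alpha, beta and gamma gene clusters, which lie side by side on mouse chromosome 18 (mm10, positions 36930285 to 37188897 for alpha, 37264998 to 37521419 for beta and 37661775 to 37841873 for gamma). Members were chosen by gene name, as every row of the expression table whose RefSeq transcript belongs to a gene of one of these clusters. The rule used no measured value, though it was chosen with earlier results of these data known. It gave 33 of the 19048 rows, of which 3 were alpha, 8 were beta and 22 were gamma. They were measured by RNA sequencing of naive CD4 T cells, which are helper lymphocytes before their first contact with antigen, isolated by magnetic enrichment and flow sorting from C57BL/6 mice. The 3 Trim28 KO libraries (KO1 to KO3) come from mice in which Trim28 was deleted, and the 3 wild-type libraries (WT1 to WT3) come from littermates. The titles of all libraries carry the label D0. Trim28 is a corepressor brought to chromatin by KRAB zinc finger proteins, and one of its partners is the histone methyltransferase Setdb1. The sources used here do not give how and in which cells Trim28 was deleted, the age of the mice, or whether each library is a separate mouse. The p-values therefore measure only the spread between these libraries, part of which may be technical.

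Clustered protocadherins are best known from the nervous system, where each neuron displays its own combination of isoforms and proteins of the same isoform bind each other between cells. In the alpha and gamma clusters, each isoform has its own promoter and a large variable exon, which is spliced to a set of short constant exons at the end of the cluster. Beta genes have a single exon and no constant part. The gamma genes fall into the A and B subfamilies, whose promoters are picked seemingly at random in single neurons, and the C-type genes at the downstream end, which most neurons express. In the mouse the clusters are known to be kept in check by DNA methylation, by Smchd1 and, in neurons, by Setdb1, and to be switched on through Ctcf and cohesin.

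The unit throughout is the normalized read count, which is the reads of a row scaled by the size factor of the library. The libraries held from 22005759 to 44372701 reads over all rows. Trim28 itself had a normalized count of 738, 628 and 1247 in KO1, KO2 and KO3, against 8429, 8287 and 9428 in WT1, WT2 and WT3 (limma adjusted p 0.000135, log2 fold change -3.38, SE 0.22). Among the fixed lists of marker genes, those of B cells summed to 198 and 197 in KO1 and KO2 and 1549 in KO3, against 179 to 332 in the WT libraries. Those of CD8 T cells summed to 755, 708 and 4416 in KO1, KO2 and KO3, against 561 to 1065 in the WT libraries. KO3 therefore stood apart from the other libraries. Transcripts of 4 Y-linked genes were high in KO2 and WT1 alone, with summed counts of 12677 in KO2 and 13625 in WT1 against at most 2.39 elsewhere, so neither group came from a single animal.

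Naive CD4 T cells contained transcripts of nearly the whole gamma cluster and next to none of the alpha and beta clusters. The alpha rows held 4 reads over the 3 KO libraries and 1 over the 3 WT libraries, and the beta rows held 6 reads in the KO libraries and 6 in the WT libraries. The gamma rows held 2592 reads in the KO libraries and 1805 in the WT libraries. In total the KO libraries had 103188831 reads and the WT libraries 93712885, so that a row with no read could still be present at up to 0.0291 RPM (reads scaled to library total) in KO cells and 0.0320 RPM in WT cells, a limit of 3 reads that covers counting error only. All 22 annotated gamma genes had a row, whereas 3 of 14 alpha genes and 8 of 22 beta genes did. The table holds no row with 0 reads in all 6 libraries, and the other 25 annotated genes of the clusters were not analysed here.

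The alpha rows were Pcdha5, Pcdha9 and Pcdha11, genes for alternative isoforms of the alpha type. No alpha or beta row had more than 1 read in any library, and none had more than 2 reads over all libraries. Pcdha9 had 0, 1 and 1 reads in KO1, KO2 and KO3 and none in the WT libraries. Pcdha5 had a single read, in KO1, and Pcdha11 had 1 read in KO1 and 1 in WT1. The alpha groups overlapped in the 3 rows, and these read numbers allow no comparison between KO and WT cells.

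Among the beta rows, Pcdhb14, Pcdhb16, Pcdhb18 and Pcdhb22 had 2 reads each, and Pcdhb4, Pcdhb5, Pcdhb13 and Pcdhb17 had 1 each. The number of beta rows with a read was 0, 1 and 5 of 8 in KO1, KO2 and KO3, against 2, 1 and 3 in WT1, WT2 and WT3. The highest of these numbers was in KO3, the library with the high B cell and CD8 T cell marker counts, whose part in it was not tested. Across the whole table KO3 also had the largest share of rows above 0 (92.4%, against 83.2% to 88.6% in the other libraries). Without KO3 the mean beta sum of the KO libraries was 0.729 normalized counts, against 1.81 with it. A difference of beta transcripts between KO and WT cells was not detectable at this depth.

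The gamma cluster was detected almost completely in each library. Of the 22 gamma rows, 21 had reads in all 6 libraries. The exception was Pcdhgb1, a B subfamily gene near the upstream end, with 1, 2 and 5 reads in KO1, KO2 and KO3 and 0, 0 and 1 reads in WT1, WT2 and WT3. The groups of Pcdhgb1 overlapped only through the single reads of KO1 and WT3.

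The sources used here do not say how reads of the constant exons were counted. In the GENCODE release M21 models of the 22 gamma transcripts, each has 4 exons, and between 2421 and 2961 bases belong to that transcript alone. The part shared with other gamma transcripts is at most 2119 bases, and only 375 bases in Pcdhgb8. The gamma row with the fewest reads had 1, 2 and 5 in KO1, KO2 and KO3 and 0, 0 and 1 in WT1, WT2 and WT3, and reads of constant exons added in full to every row could be no more than these. Levels of different genes are therefore compared per kb of private exon. Stretches of 100 bases in the private part were searched for in transcripts of other genes, leaving out genes with an exon over that part. At most 10.7% of the stretches also occurred in one of the genes searched, for Pcdhgb2, and in 14 of the 22 rows none did. In 8 gamma rows an antisense exon lies over the private part, and the sources used here do not say whether strand was kept, so these pairs cannot be told apart. These 8 are Pcdhga1 (Gm37118), Pcdhga7 and Pcdhga8 (Gm37165), Pcdhga10, Pcdhgb7, Pcdhga11 and Pcdhga12 (Gm26672), and Pcdhgc3 (BC037039). The private parts of Pcdhga4 and Pcdhga8 are also overlapped by exon models of Pcdhgb1 and Pcdhgb4, and their counts are uncertain for that reason.

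Gamma transcript levels of the A and B genes were higher in the downstream than in the upstream part of the cluster. They did not rise steadily along it. The first 8 genes, from Pcdhga1 to Pcdhga6, were the lowest A and B members. Their level per kb of private exon was between 0.973 and 3.84 in KO means (median 2.01) and between 0.0988 and 3.56 in WT means (median 1.76). The next 11 A and B genes, from Pcdhga7 to Pcdhga12, had levels per kb between 7.64 and 51.7 in KO means (median 17.6) and between 4.71 and 40.0 in WT means (median 14.7). Every one of these 11 was above every one of the first 8 in 5 of the 6 libraries, the exception being WT2, where Pcdhga7 had 2.11 per kb and the highest of the first 8 had 3.46. The dividing line after the eighth gene was chosen after the values were seen. Among the 11, the mean level per kb over the 6 libraries was highest in Pcdhgb6 (45.9). It was lower again in the last A and B genes, Pcdhga11 (14.0), Pcdhgb8 (13.9) and Pcdhga12 (16.6). Of the first 8 genes only Pcdhga1 has an antisense exon over its private part. Of the 11 higher genes Pcdhga7, Pcdhga8, Pcdhga10, Pcdhgb7, Pcdhga11 and Pcdhga12 have one. Whether strand was kept is not known, and the part of antisense reads in the difference was not tested. Over the 19 A and B genes, the Spearman correlation across genes between position in the cluster and level per kb was 0.83 in KO means and 0.79 in WT means (Pearson r with the log2 level 0.85 in KO and 0.81 in WT). With the 3 C-type genes included, Spearman's correlation was 0.68 in KO means and 0.58 in WT means. These correlations include the step after the eighth gene. Genes of a cluster share libraries and are not independent replicates.

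**Figure D1:**
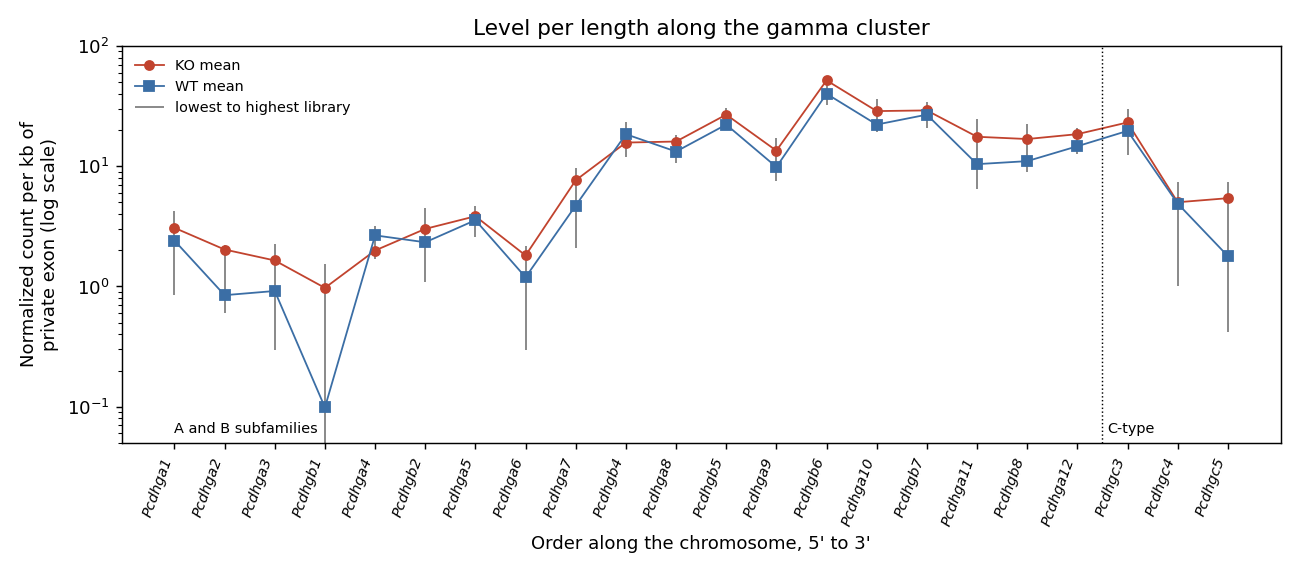
Normalized count per kb of private exon (log axis) for the 22 gamma genes in their order along the chromosome. Circles are KO means and squares WT means, and grey lines run from the lowest to the highest of the 6 libraries (the line of Pcdhgb1 reaches 0, below the axis). The first 8 genes lie at or below 3.84 in both groups, Pcdhgb6 is the highest at 51.7 in KO and 40.0 in WT, and Pcdhgc4 and Pcdhgc5 are lower again.

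Pcdhgb6, a B subfamily gene in the downstream part, was the most abundant member per kb in 6 of 6 libraries. It made up 17.5% ± 2.31 of the summed gamma count in KO libraries and 16.9% ± 3.24 in WT libraries (SD, n = 3 each). Together with Pcdhgb7, Pcdhga10, Pcdhgb5 and Pcdhgc3 it held 53.9% ± 2.92 of the gamma count in KO libraries and 55.3% ± 4.44 in WT libraries. Of these genes Pcdhgb7, Pcdhga10 and Pcdhgc3 have an antisense exon over the private part. The profile of the cluster was alike from library to library. Over the 22 genes, Spearman's correlation of level per kb between any 2 libraries was between 0.83 and 0.96 over the 15 pairs, and it was 0.95 between the KO and WT means. These correlations are across genes and describe the profile, which all libraries share.

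The comparison of KO with WT cells asks whether this pattern differs when Trim28 is missing. As a whole, the gamma cluster stood somewhat higher in KO cells. The summed normalized count of the 22 rows was 874, 736 and 688 in KO1, KO2 and KO3, against 554, 627 and 647 in WT1, WT2 and WT3. The 3 KO sums lay above the 3 WT sums, with the smallest gap between KO3 and WT3. The means were 766 ± 96.6 in KO and 609 ± 49.3 in WT (SD, n = 3 each), a ratio of 1.26. As a share of all reads, the cluster took 27.6, 22.9 and 23.4 RPM in KO1, KO2 and KO3. In WT1, WT2 and WT3 it took 16.9, 19.2 and 20.6 RPM. These are the same reads on another scale, also without overlap. Of single tested rows, 9.21% had all KO values above all WT values. Without KO3 the KO mean was 805. A sum over chosen members was given no test. The gamma sum includes the 8 rows with an antisense exon over the private part, and the part of antisense reads in it was not tested. Summed markers of natural killer cells, neurons and glia also lay higher in all KO than in all WT libraries, and those of T cells lower, and their part in the gamma sum was not tested. In such bulk samples, more cells with a transcript and more transcript per cell cannot be told apart.

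No single gamma gene passed the test. The test took rows whose normalized count averaged 10 or more, a mean that 13 gamma rows reached and 9 did not. The test was limma on log2 of the normalized count plus 1, with Benjamini-Hochberg adjustment over all 13022 rows tested and a threshold of 0.05. It called 0 of the 13 higher and 0 lower in KO cells, where 1.51% of all tested rows were called, 1.19% higher and 0.315% lower. Their adjusted p ran from 0.469 to 0.909, and 0 of the 13 had an unadjusted p under 0.05, which 12.7% of all tested rows had. With limma's voom weights on recovered reads, no gamma row was called either, and 0 of the 13 had an unadjusted p under 0.05. The log2 fold change was above 0 in 11 of the 13 rows, as it was in 50.4% of all tested rows, and below 0 in Pcdhgb4 and Pcdhgc4. The median over the 13 was 0.34, against 0.0019 over all tested rows. Without KO3 it was 0.42, with 11 above 0 and 0 called, where 553 of 12856 rows were called over the whole table. Leaving KO3 out moved 7 of the 13 log2 fold changes by over 1.5 times, to -0.12 for Pcdhgb4, 0.45 for Pcdhga8, 0.53 for Pcdhga10, 0.33 for Pcdhgb7, 0.85 for Pcdhgb8, 0.13 for Pcdhgc3 and -0.76 for Pcdhgc4. Since the rows are neighbours in 1 cluster with shared exons, the 13 are not 13 independent observations.

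**Figure D2:**
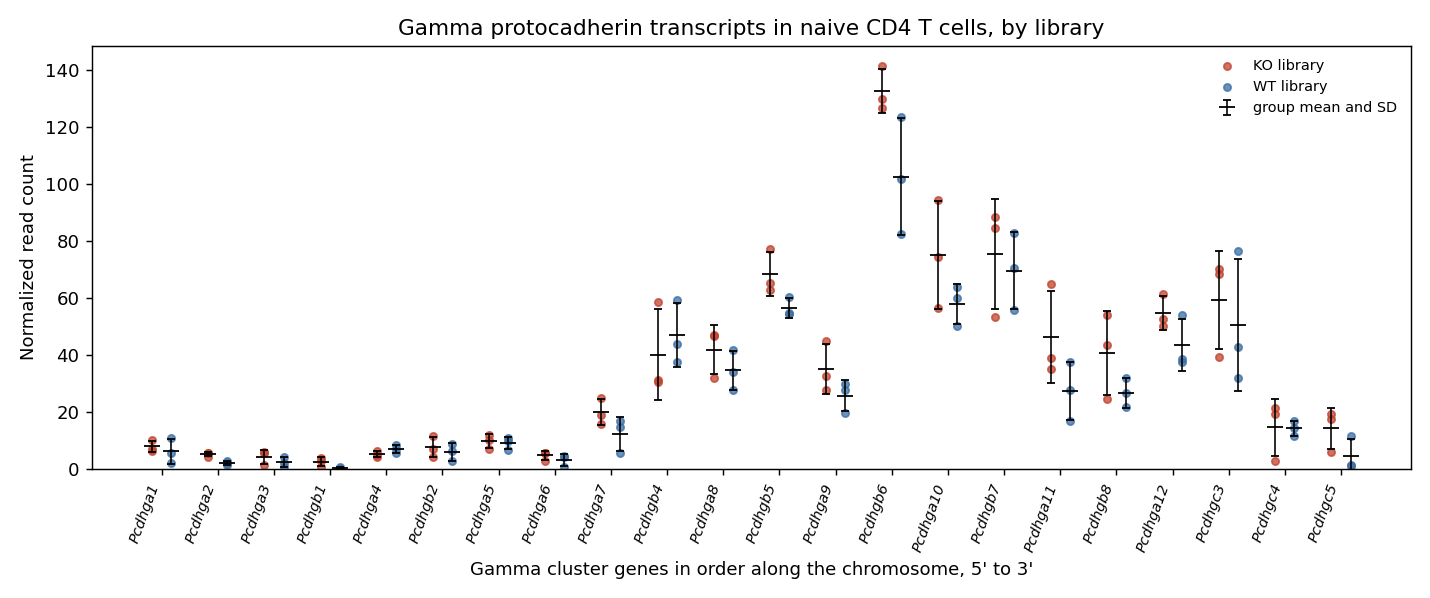
Normalized read count of each gamma gene in the 3 KO libraries (left of each pair) and the 3 WT libraries (right), in order along the chromosome, with the group mean and SD (n = 3 each). The KO and WT points overlap for all genes but Pcdhga2, Pcdhgb5 and Pcdhgb6.

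The intervals show what size of change these libraries leave possible. The 95% intervals of all 13 fold changes include 0, and 7 of them end below 1 on the log2 scale. The widest interval, for Pcdhgc4, ran from -1.90 to 1.27, and the narrowest, for Pcdhgb6, from -0.06 to 0.83. SEs were between 0.19 and 0.69 on the log2 scale.

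**Figure D3:**
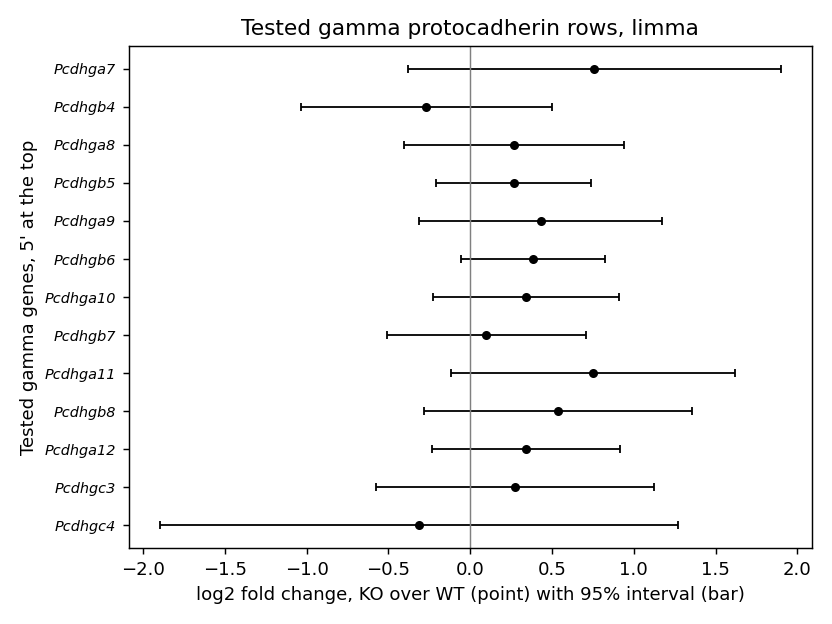
Log2 fold change of KO over WT for the 13 tested gamma genes, upstream genes at the top, with the 95% interval from limma (n = 3 libraries each). All 13 intervals cross 0, and 11 of the 13 points lie above it.

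In the B subfamily, Pcdhgb6 had a normalized count of 129.9, 141 and 127 in KO1, KO2 and KO3, against 102, 82.5 and 124 in WT1, WT2 and WT3. The KO values lay just above the WT values, with KO3 and WT3 nearly touching. Its log2 fold change was 0.38 (SE 0.19, n = 3 each, limma adjusted p 0.469). The two-sided exact permutation p was 0.1, and no smaller p can be reached with 3 libraries a group. Pcdhgb5, its neighbour 2 genes upstream, had 62.8, 77.2 and 65.4 in KO1, KO2 and KO3, against 54.4, 60.5 and 54.8 in WT1, WT2 and WT3, also without overlap (log2 fold change 0.27, SE 0.21, limma adjusted p 0.642). These were the 2 tested gamma rows whose KO values all lay above the WT values, where 9.21% of all tested rows were so placed, and 0 of the 13 were placed the other way, where 9.58% of all tested rows were.

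Pcdhgb7, the second most abundant B gene, had 88.5, 84.5 and 53.4 in KO1, KO2 and KO3, against 55.8, 70.4 and 82.6 in WT1, WT2 and WT3. Its groups covered nearly the same range, and the log2 fold change of 0.10 (SE 0.27) turned negative under quantile normalization and without KO1 or WT1. Pcdhgb4 had 58.5, 30.6 and 31.1 in KO1, KO2 and KO3, against 37.6, 59.4 and 44.0 in WT1, WT2 and WT3, for a limma adjusted p of 0.789 and a log2 fold change of -0.27 (SE 0.34). KO1 stood with the highest WT library, and the other KO libraries lay below all WT libraries. Pcdhgb8, which GENCODE annotates as a polymorphic pseudogene, was transcribed like its neighbours, at 43.6, 53.9 and 24.7 in KO1, KO2 and KO3, against 26.5, 31.9 and 21.6 in WT1, WT2 and WT3. KO3 lay inside the WT range, and the log2 fold change was 0.54 (SE 0.36, limma adjusted p 0.584).

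In the A subfamily, Pcdhga11 and Pcdhga7 had the largest positive fold changes of the tested rows. Both have an antisense exon over the private part, and the part of antisense reads in these fold changes was not tested. Pcdhga11 had 65.0, 35.0 and 39.1 in KO1, KO2 and KO3, against 27.9, 37.4 and 16.99 in WT1, WT2 and WT3. KO1 stood above the other libraries, and KO2 lay below WT2 (log2 fold change 0.75, SE 0.38, limma adjusted p 0.473). Pcdhga7 had 24.99, 18.9 and 15.9 in KO1, KO2 and KO3, against 16.7, 5.50 and 14.7 in WT1, WT2 and WT3, for a limma adjusted p of 0.582 and a log2 fold change of 0.76 (SE 0.50). Its fold change rested in part on the low WT2 value, being 0.31 without WT2.

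Pcdhga10, the most abundant A gene, had 94.2, 74.3 and 56.6 in KO1, KO2 and KO3, against 60.0, 63.8 and 50.2 in WT1, WT2 and WT3. The remaining tested A genes, Pcdhga8, Pcdhga9 and Pcdhga12, had log2 fold changes of 0.27, 0.43 and 0.34, and their groups overlapped as well. KO1 was the highest library in all 6 tested A genes.

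Among the 8 upstream genes, none reached the mean needed for testing. Pcdhga5, with a mean of 9.41 over the 6 libraries, was the nearest to it of the 8. Pcdhga2 was the only one of the 8 whose groups did not overlap, at 5.71, 4.37 and 5.58 in KO1, KO2 and KO3, against 2.79, 2.20 and 1.54 in WT1, WT2 and WT3. These values are 8, 3 and 7 reads in the KO libraries and 2 reads in each WT library. Over the whole table, 8.02% of rows had KO values all above the WT values and 7.1% had them all below. Pcdhga4 had the lower mean in KO cells, at 5.19 ± 1.09, against 6.94 ± 1.43 in WT cells (SD, n = 3 each). The KO and WT ranges of Pcdhga1, Pcdhga3, Pcdhga4, Pcdhgb1, Pcdhgb2, Pcdhga5 and Pcdhga6 overlapped. Summed, the 8 genes had 45.7, 45.2 and 51.0 in KO1, KO2 and KO3, against 37.6, 31.9 and 38.6 in WT1, WT2 and WT3, a ratio of means of 1.31 with no overlap. They made up 6.26% ± 1.10 of the gamma count in KO libraries and 5.95% ± 0.857 in WT libraries. These shares differed by less than the spread between libraries.

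The C-type genes lie at the downstream end. Pcdhgc3, which in the mouse takes part in dendrite branching and binds Axin1, had 68.5, 39.3 and 70.1 in KO1, KO2 and KO3, against 32.1, 42.9 and 76.5 in WT1, WT2 and WT3. The libraries fell into a high set of KO1, KO3 and WT3 and a low set of KO2, WT1 and WT2, with KO and WT in each (log2 fold change 0.28, SE 0.37, limma adjusted p 0.808). Pcdhgc4, which in the mouse supports the survival of neurons, had 19.3, 2.91 and 21.5 in KO1, KO2 and KO3, against 16.7, 14.3 and 11.6 in WT1, WT2 and WT3. Its value in KO2 is 2 reads (95% exact Poisson interval 0.353 to 10.5 in normalized counts), while KO1 had 27 reads (12.7 to 28.0). Its limma adjusted p was 0.891, and the log2 fold change, -0.31 with an SE of 0.69, turned to 0.50 without KO2. The mean normalized count of Pcdhgc4 was not lower in KO cells, at 14.6 against 14.2 in WT cells.

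Pcdhgc5, the last gene of the cluster, fell just short of the mean needed for testing, at 9.45 over the 6 libraries. It had 19.3, 5.83 and 17.5 in KO1, KO2 and KO3, against 1.39, 1.10 and 11.6 in WT1, WT2 and WT3. The reads behind these values were 27, 4 and 22 in KO1, KO2 and KO3 and 1, 1 and 15 in WT1, WT2 and WT3. WT3 lay within the KO range and apart from the other WT libraries, whose intervals (0.0353 to 7.77 in WT1 and 0.0279 to 6.13 in WT2) overlapped that of WT3 (6.48 to 19.1) only in WT1. With rows of a mean of at least 1 in the fit, Pcdhgc5 had a log2 fold change of 1.78 (SE 0.78, interval 0.02 to 3.54) with a limma adjusted p of 0.436 and an unadjusted p of 0.0476. That fit took in all 22 gamma rows and called 0 of them, where it called 203 of 16237 rows in all. Pcdhgc5 was the only member in it with an unadjusted p under 0.05, which 1818 of the 16237 rows had. With no filter, limma gave 2 of the 33 members an unadjusted p under 0.05, where 1926 of 19048 rows had one. It called 0 of the 33, where it called 198 rows in all.

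Summed over the C-type genes, the normalized count was 107, 48.1 and 109 in KO1, KO2 and KO3, against 50.2, 58.3 and 99.6 in WT1, WT2 and WT3. The high values were those of the 3 most deeply sequenced libraries, with 44372701 reads in KO1, 36810371 in KO3 and 40586195 in WT3. The low values were those of the 3 others, with 22005759 reads in KO2, 23438722 in WT1 and 29687968 in WT2. The part of depth in this split was not tested. The C-type share of the gamma count was 12.3%, 6.53% and 15.9% in KO1, KO2 and KO3, against 9.07%, 9.30% and 15.4% in WT1, WT2 and WT3.

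The A genes summed to 371, 293 and 266 in KO1, KO2 and KO3, against 224.5, 255 and 214 in WT1, WT2 and WT3. Their groups lay apart, at a ratio of means of 1.34. Of single tested rows, 9.21% had all KO values above all WT values. The B genes summed to 396, 395 and 312 in KO1, KO2 and KO3, against 279, 314 and 334 in WT1, WT2 and WT3. The B groups overlapped through KO3 on this scale, at a ratio of 1.19, and stood just apart in RPM, where KO3 and WT3 both rounded to 10.6. The A and B shares of the gamma count overlapped between the KO and WT libraries. The A genes made up 40.3% ± 1.95 in KO and 38.1% ± 4.37 in WT, and the B genes 48.1% ± 4.805 in KO and 50.6% ± 0.809 in WT (SD, n = 3 each).

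**Figure D4:**
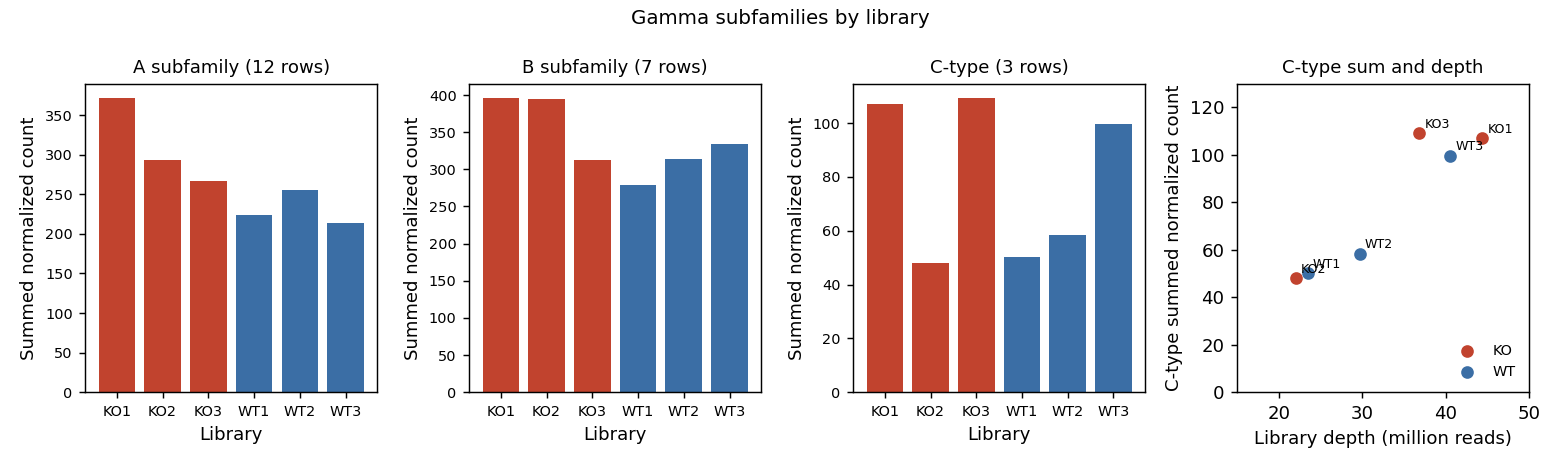
Summed normalized count of the A, B and C-type gamma genes in each library (bars, KO red and WT blue), and the C-type sum against library depth. The A sums are 266 to 371 in KO and 214 to 255 in WT, while the C-type sums are 99.6 to 109 in KO1, KO3 and WT3 and 48.1 to 58.3 in KO2, WT1 and WT2.

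For the 13 tested gamma genes, the SD between KO libraries was 0.671 to 2.67 times the SD that counting error alone gives (median 2.19), and that between WT libraries was 0.436 to 3.12 times (median 1.33). The highest ratios were those of the C-type genes Pcdhgc4 in KO and Pcdhgc3 in WT libraries.

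The neighbours of the clusters gave no call in limma. Slc25a2, a mitochondrial ornithine carrier gene between the beta and gamma clusters, had 263 ± 48.2 in KO and 204 ± 40.1 in WT cells (SD, n = 3 each; log2 fold change 0.37, SE 0.20, limma adjusted p 0.499). Taf7, a general transcription factor gene in the same gap, had 3595 ± 387 in KO and 4132 ± 649 in WT cells. Diaph1, which encodes a formin downstream of the gamma cluster, had 7239 ± 1547 in KO and 6266 ± 673 in WT cells, and Hdac3 1866 ± 256 in KO and 1900 ± 153 in WT cells. Upstream of the alpha cluster, Zmat2 and Vaultrc5 had log2 fold changes of -0.17 and -0.20, and Gm6756 was too low to be tested, as was Mir6979 downstream of the gamma cluster. None of these 6 tested neighbours had an unadjusted p below 0.05.

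Of 26 factors listed as acting on the clusters, 22 were tested in limma, and none was called. An unadjusted p below 0.05 was found for 3 of the 22, where 12.7% of all tested rows had one. Ctcf, which binds the promoters and enhancers of the clusters, had 10574 ± 1281 in KO and 8350 ± 518 in WT cells (SD, n = 3 each; limma adjusted p 0.232). Atf7ip, a partner of Setdb1, had a limma adjusted p of 0.128 and a log2 fold change of 0.75 (SE 0.19), and the cohesin genes Stag2 and Smc1a had -0.29 and -0.19. Of 12 non-clustered protocadherins 5 had a row and 0 were high enough to be tested. Among 8 tested genes of the wider cadherin family limma called 1, where 1.51% of all tested rows were called. This gene, Cdh24, fell to 237 ± 36.9 in KO against 569 ± 76.0 in WT cells (limma adjusted p 0.00416). The other 7 did not pass, Cdh1 (1.77), Cdh13 (1.26) and Celsr1 (0.29, log2 fold changes) among them. The KO values of Cdh1 all lay above its WT values (limma adjusted p 0.0583). An unadjusted p below 0.05 was found for 3 of the 8. Of 15 tested genes for intracellular partners of these proteins limma called none. The unadjusted p was below 0.05 for 3 of the 15, with log2 fold changes of -0.39 for Rack1, -0.92 for Psen2 and 0.49 for Fyn, and Adam10 followed at 0.26 with overlapping groups.

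Markers of T cells summed to 126568 to 139313 in KO and 141521 to 143159 in WT libraries, with all 10 present. Cells that use clustered protocadherins were looked for through their markers. Of 8 neuron markers 3 had a row, and their sum was 308 to 361 in KO and 40.4 to 57.9 in WT libraries. This was nearly all Tubb3, a tubulin gene, at 325 ± 30.7 in KO and 44.3 ± 8.48 in WT libraries (SD, n = 3 each; limma adjusted p 0.000139). Map2 had at most 4.28 in any library and Stmn2 at most 1.46, while Snap25, Rbfox3, Syt1, Gap43 and Nefl had no row. Of 5 glia markers 3 had a row. Their sum of 7997 to 10574 in KO and 7214 to 7700 in WT libraries was Mbp, which lymphocytes also transcribe, with Gfap and Olig2 at no more than 1.10. Stromal markers, 3 of 7 with a row, summed to 1.46 to 16.7 in KO and 0 to 4.4 in WT libraries, with Col3a1 at 0 in the WT libraries. Endothelial markers, 3 of 5 with a row, summed to 251 to 312 in KO and 273 to 324 in WT libraries, nearly all Pecam1, with Cdh5 at 1.46 to 18.3 in KO and 7.72 to 17.6 in WT libraries. Natural killer cell markers, all 4 with a row, summed to 288 to 922 in KO and 194 to 207 in WT libraries, without overlap. Myeloid markers, all 8 with a row, summed to 97.6 to 617 in KO and 107 to 358 in WT libraries, with Cd14 at 0 in the WT libraries. Erythroid markers, 4 of 6 with a row, summed to 3.57 to 109 in KO and 13.1 to 93.4 in WT libraries, with Hbb-bs at 0 in the KO libraries. The part of these cells in the gamma counts was not tested.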

How the data were processed

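RNA of 3 Trim28 KO and 3 wild-type libraries of naive CD4 T cells was read as 100 bp pairs, per the labels' protocols. STAR, HTSeq, DESeq2 and mm10 are named in the submitters' processing notes, without versions or roles. The authors deposited values on a log10 scale, taken after each read count was scaled by its library's size factor and raised by 1. The scale was found from the values, since 10 to their power, minus 1, gave whole multiples of 1 step per library for 100% of values (within 0.01 of a whole number). These steps gave the recovered reads. Intervals and limits from reads cover counting error only, as PCR copies are not independent molecules.

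Rows carry RefSeq accessions. The GRCm38.p6 RefSeq gene table named 18811 of 19048, and GENCODE release M21 a further 104. Members, lists and the rule for named genes were chosen with earlier results of these data known. The rule took every member row past the filter, the 3 highest of each cluster and all C-type genes, with up to 4 genes of each other list by smallest p and the nearest neighbouring genes. No member had 0 reads in 1 group and 10 or more in the other.

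The fit used limma 3.58.1 in R 4.3.3, with the empirical Bayes trend, on all 6 libraries with no covariate. Alternatives were the pseudocount, filter, scaling, variance model, replicate block, a covariate of Y-linked transcripts, rows summed per symbol, and each library left out.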

Additional observations from a re-analysis of the deposited data

How the results depend on the processing

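The number of clustered protocadherin rows called was 0 under each of the 19 alternatives, and the lowest adjusted p of any of the 13 tested rows was 0.174 (limma, Pcdhgb8 without KO3). Of 239 fold changes recomputed for these 13 rows, 235 kept their sign and stayed above the threshold. The 4 that changed sign were Pcdhgb7 under quantile normalization (-0.015), without KO1 (-0.032) and without WT1 (-0.050), and Pcdhgc4 without KO2 (0.50), and the cause was not tested. With 1 library left out, Pcdhgb7 lay between -0.050 and 0.33 and Pcdhgc4 between -0.76 and 0.50. Pcdhgc3 lay between 0.0028 (without WT1) and 0.62 (without WT3), Pcdhgb4 between -0.57 (without KO1) and -0.089 (without WT2), and Pcdhga8 between 0.13 (without WT1) and 0.45 (without KO3). The other 8 ranged from 0.17 (Pcdhga10 without KO1) to 1.03 (Pcdhga7 without WT1). Over all rows, 196 calls became 124 without the mean-variance trend, and between 113 and 553 with 1 library left out (113 without KO2, 553 without KO3, 124 without WT1 and 127 without WT3), for which the cause was not tested. The median log2 fold change of the 13 gamma rows was 0.40 when scaled by total reads and 0.23 under quantile normalization. The mean gamma sum was 712 to 805 in KO and 590 to 637 in WT with 1 library left out, and 779 in KO and 598 in WT when scaled by total reads. The mean alpha sum of WT libraries was 0 without WT1, against 0.465 with it. With the replicate number as a block, 0 protocadherin rows and 175 rows in all were called. The numbers pair no libraries by the labels, and same-numbered libraries deviated together with r of -0.31, 0.26 and 0.36. Depth limits the alpha and beta rows, which held at most 2 reads each.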
